A study of Mus musculus with 10 samples.

Results

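In all, 10 genes of iron handling and ferroptosis defence were followed in the livers of mice with steatohepatitis that had or lacked hepatocyte Lpcat3. They were taken by name: Gpx4 and Aifm2, which protect membranes against lipid peroxidation, Ncoa4, which sends ferritin for breakdown, and 7 genes of iron transport and its hormonal control, namely Trf, Tfrc, Tfr2, Slc39a14, Slc40a1, Hamp and Bmp6. These are 10 of 27179 genes in the count table, and all 10 were among the 15226 genes that passed the filter on low counts. Each group held 5 male mice of the strain C57BL/6, and 1 RNA library was made from the whole liver tissue of each mouse. The control group had the genotype Lpcat3f/f, that is, floxed Lpcat3 alleles and no Cre. The LKO group had the genotype Lpcat3f/f Albumin-Cre, in which the albumin promoter drives Cre recombinase, so the deletion is directed to hepatocytes and other liver cells keep the gene. All mice of both groups ate a diet that produces nonalcoholic steatohepatitis (NASH) for 12 weeks, so no value describes a healthy liver.

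The liver is the main iron store of the body and the source of the iron hormone hepcidin, the product of Hamp. Iron reaches cells bound to transferrin or, when transferrin is saturated, through the transporter encoded by Slc39a14, is stored in ferritin and leaves through ferroportin, which hepcidin removes from the cell surface. Ferroptosis is a form of cell death in which iron drives the peroxidation of polyunsaturated phospholipids. Lpcat3 belongs to it as well, since it places polyunsaturated fatty acids into phospholipids.

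Lpcat3 itself, the check of the genotype, stood at 124, 118, 111, 95.7 and 94.1 CPM (counts scaled to library size by the TMM method) in control 1 to 5 and at 31.1, 31.3, 38.5, 25.5 and 30.3 CPM in LKO 1 to 5. The log2 fold change of -1.79 had an SE of 0.12 and an adjusted p of 1.51e-04 by edgeR's quasi-likelihood test with Benjamini-Hochberg adjustment, and no LKO library reached a control. Libraries held 26914124 to 46727182 counts. Control 4 stood apart from the other controls: on the first principal component it lay at 30.2, among the LKO libraries (-8.03 to 82.3), against -52.7 to -30.1 for the other 4 controls. The liver label was borne out by the hepatocyte markers, 10 of 10 of which were detected and lower on average in LKO, and which summed to 57939 to 92535 CPM in control and 51146 to 70360 CPM in LKO, with control 4 the lowest control. All 9 of 9 recruited macrophage markers were higher on average in LKO, with sums of 84.0 to 454 CPM in control, control 4 the highest, and of 202 to 790 CPM in LKO. Sums of cholangiocyte markers ran from 23.3 to 158 CPM and from 28.2 to 367 CPM, with Cftr at 0 in a library, and those of stellate cell markers from 410 to 719 CPM and from 506 to 813 CPM. Spp1 is counted in both the recruited macrophage and the cholangiocyte sums, so these sums are not independent of each other. Kupffer cell markers summed to 235 to 321 CPM and 296 to 480 CPM, sinusoidal endothelial markers to 437 to 500 CPM and 435 to 675 CPM, erythroid markers to 181 to 304 CPM and 116 to 251 CPM, and lymphocyte markers to 3.33 to 6.72 CPM and 3.36 to 7.22 CPM. In RNA of whole tissue, fewer cells of a type and less RNA per cell cannot be told apart. P-values measure only the spread between these samples. Titles of the samples also hold a code, A54, A55 or A67, whose meaning is not given, and A54 alone occurs in both groups, in control 1, LKO 1 and LKO 2. A fit with the title code as a covariate therefore takes its genotype effect from these A54 libraries alone, 1 control and 2 LKO.

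None of the 10 iron and ferroptosis genes passed an adjusted p of 0.05 between LKO and control (edgeR quasi-likelihood test, Benjamini-Hochberg), a threshold that 0.0657% of all tested genes passed. At an unadjusted p under 0.05 there were 3 of 10, against 22.3% of all genes. Gpx4 was the higher one, where 12.8% of all genes were higher at that threshold, and Slc40a1 and Slc39a14 were the lower ones, where 9.50% were lower. The estimated log2 fold change was above 0 for Gpx4, Aifm2 and Bmp6 and below 0 for the other 7, with a median of -0.21 over the 10 genes and of -0.00 over all genes, 50.5% of which were below 0. No gene of the 10 separated the groups without overlap, which 3.95% of all genes did. DESeq2 called 0 of the 10 and 7.43% of all genes, and limma voom with quality weights called 1 of the 10, Gpx4, and 16.2% of all genes. Without control 4, edgeR called 2 of the 10, Gpx4 and Tfr2, beside 15.0% of all genes, and 3 of the 10 (Gpx4, Tfr2 and Slc39a14) no longer overlapped, beside 19.0% of all genes. With no filter on low counts edgeR called 0 of the 10 and 0.119% of all genes, and with the title code as a covariate it called 0 of the 10 and 0% of all genes, with 760 genes at an unadjusted p under 0.05. When libraries were scaled to total counts in place of TMM, the median of all genes moved to 0.235, and relative to that median the 10 genes lay between -0.62 (Hamp) and 0.43 (Gpx4). Taken as they are, the total-count values of Ncoa4, Trf and Slc39a14 lay just above 0, at 0.14, 0.04 and 0.01.

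**Figure D1:**
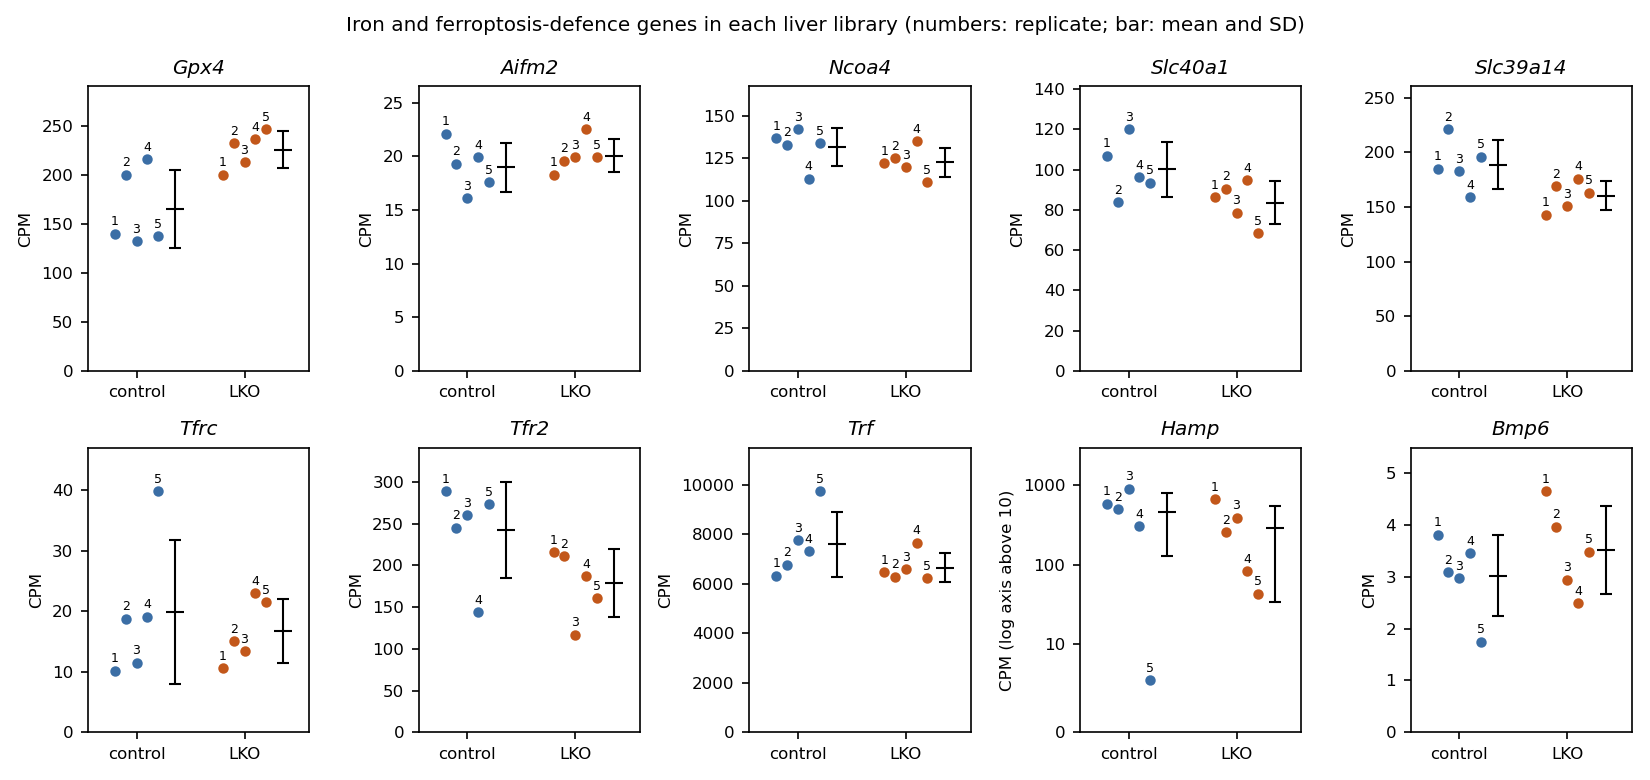
CPM (vertical axis, TMM-scaled; a log axis above 10 CPM for Hamp) of each of the 10 genes in the 5 control and 5 LKO libraries, with points numbered by replicate and the bar giving mean and SD. In every panel the groups overlap. The lowest Hamp value, 5.91 CPM, is in control 5, which also has the highest Tfrc value, 39.9 CPM.

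Gpx4 (NCBI Gene 625249) encodes the selenoenzyme that reduces phospholipid hydroperoxides to alcohols, the central defence against ferroptosis. Its level was 140, 200, 132, 216 and 137 CPM in control 1 to 5 and 200, 232, 213, 236 and 246 CPM in LKO 1 to 5. The controls fell into a lower trio and a higher pair, controls 2 and 4, and the higher pair reached into the LKO range. All 5 of 5 LKO libraries were above the control median and 3 of 5 were above every control. Means were 165 ± 39.8 CPM in control and 226 ± 18.4 CPM in LKO (SD, n = 5), a log2 fold change of 0.45 (SE 0.15), with an adjusted p of 0.143 by edgeR's quasi-likelihood test and Benjamini-Hochberg. Without control 4 the log2 fold change was 0.57 (edgeR adjusted p = 0.0221), and with voom weights it was 0.56 (limma adjusted p = 0.0206). Over the alternatives other than the title code, the adjusted p of Gpx4 ran up to 0.314, the value that edgeR gave without control 3. Among the A54 libraries Gpx4 was 0.62 higher in LKO on the log2 scale. The fit with the title code as a covariate, which rests on these libraries alone for genotype, gave 0.62 as well. Control 4, one of the 2 controls with high Gpx4, had the highest macrophage and the lowest hepatocyte marker sums of its group, whose part in the Gpx4 values was not tested.

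Aifm2 (NCBI Gene 71361) encodes FSP1, an oxidoreductase that keeps coenzyme Q reduced at membranes and so restrains lipid peroxidation independently of Gpx4. Its level was 22.1, 19.3, 16.1, 19.9 and 17.6 CPM in the controls and 18.3, 19.6, 19.9, 22.5 and 19.9 CPM in LKO. The ranges lay almost on top of each other. The means were 19.0 ± 2.29 and 20.0 ± 1.52 CPM (SD, n = 5), and the log2 fold change was 0.08 (SE 0.10, edgeR adjusted p = 0.652). Within A54 the estimate had the other sign, -0.22.

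The other genes of ferroptosis defence gave no call by edgeR over all libraries. The list covers glutathione synthesis, coenzyme Q synthesis and the machinery of selenoprotein synthesis, and 21 of its 22 genes were tested, 8 higher and 13 lower in LKO. Their median was -0.04 on the log2 scale. At an unadjusted p under 0.05 there were 2 higher and 2 lower, where 12.8% of all genes were higher and 9.50% lower, and none passed the adjusted threshold by edgeR. Slc7a11, the cystine importer that feeds glutathione synthesis, stood at 0.642, 0.738, 1.08, 2.13 and 1.05 CPM in the controls and 1.48, 2.27, 5.94, 2.65 and 3.31 CPM in LKO. Only control 4 lay within the LKO range, and the log2 fold change was 1.47 (SE 0.41, edgeR adjusted p = 0.112). Gsr, which regenerates reduced glutathione, was 66.8 ± 5.15 CPM in control and 76.5 ± 6.96 CPM in LKO (SD, n = 5), and its log2 fold change was 0.20. Coq10a, a coenzyme Q binding protein, had 10.1 to 13.0 CPM in control and 7.46 to 9.86 CPM in LKO without overlap, at a log2 fold change of -0.34 (edgeR adjusted p = 0.129). For Secisbp2, which recruits the selenocysteine machinery to selenoprotein mRNAs such as Gpx4, the log2 fold change was -0.20 (edgeR adjusted p = 0.221).

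Genes that make or oxidise the phospholipid substrate of ferroptosis were listed together with Sat1 (0.33) and Keap1 (0.13), which do not act on phospholipids and are named for that reason. Genes of this list were mostly higher in LKO on average, these 2 included. Lpcat3 and Alox5 (-0.17 on the log2 scale, named after its values were seen) were lower. Of 10 tested genes 8 were higher and 2 lower, with a median log2 fold change of 0.27, or 0.28 without Lpcat3, and edgeR called Lpcat3 alone over all libraries, while limma voom and edgeR without control 4 also called Acsl4, Far1 and Agps. Acsl4, which activates arachidonic and other long polyunsaturated acids for esterification, was 63.2, 65.5, 52.4, 107 and 70.5 CPM in control and 81.5, 84.9, 179, 116 and 88.0 CPM in LKO. Control 4 was again inside the LKO range and the other 4 controls were below it (log2 fold change 0.61, SE 0.25, edgeR adjusted p = 0.185). Without LKO 3, the highest library, the log2 fold change of Acsl4 was 0.36. Far1 and Agps, peroxisomal enzymes of ether lipid synthesis, had log2 fold changes of 0.67 and 0.28.

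Genes that are commonly induced in cells undergoing ferroptosis or amino acid stress had a median log2 fold change of 0.45, with 7 of 7 tested genes at or above 0. At an unadjusted p under 0.05 there were 3, all higher, where 12.8% of all genes were higher. Atf3, a stress-induced transcription factor, was 1.02 to 1.36 CPM in 4 controls, 5.09 CPM in control 4 and 3.64 to 13.7 CPM in LKO. Its log2 fold change was 1.92 (SE 0.51, edgeR adjusted p = 0.106). Trib3, a pseudokinase induced by the same stress response, was 4.17 ± 0.745 CPM in control and 6.83 ± 1.97 CPM in LKO (SD, n = 5), while Hmox1, which breaks down heme and releases its iron, was 15.2 ± 3.63 and 18.6 ± 3.36 CPM (log2 fold change 0.30, and 0.18 without LKO 3). The mRNA of Atf4, upstream of both Atf3 and Trib3, was 27.6 CPM in both groups, and these counts do not measure its protein. Macrophage marker sums were higher in LKO too, and their part in these values was not tested.

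Ncoa4 (NCBI Gene 27057) encodes the cargo receptor of ferritinophagy, which carries ferritin to the lysosome so that its iron is released. Its level was 137, 133, 142, 113 and 134 CPM in control and 122, 125, 120, 135 and 111 CPM in LKO. Control 4 was well below the other controls, and 4 of 5 LKO libraries lay in or under the gap between it and them. The log2 fold change was -0.10 (SE 0.09, edgeR adjusted p = 0.485), and 0.14 with total-count scaling, that is, -0.09 relative to the median of all genes. The genes of its cargo overlapped between groups. Fth1, the ferritin heavy chain, was 684 ± 81.7 CPM in control and 679 ± 33.7 CPM in LKO (SD, n = 5). Ftl1, the light chain, was 749 ± 131 and 861 ± 100 CPM. Of the 9 tested genes of iron storage and ferritin turnover, 2 were higher and 7 lower, with a median of -0.04. None had an unadjusted p under 0.05, against 22.3% of all genes. Among them Pcbp2, a chaperone that delivers iron to ferritin, had a log2 fold change of -0.26, and the autophagy genes Atg5, Atg7 and Tax1bp1 had -0.23, -0.22 and -0.14.

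Trf (NCBI Gene 22041) encodes transferrin, the plasma iron carrier that hepatocytes secrete. Its level was 6334, 6774, 7768, 7333 and 9756 CPM in control and 6468, 6299, 6595, 7666 and 6223 CPM in LKO. Control 5 was the highest library and LKO 4 stood above the rest of its group. The log2 fold change was -0.19 (SE 0.18, edgeR adjusted p = 0.536) and 0.01 within A54.

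Tfrc (NCBI Gene 22042) encodes transferrin receptor 1, whose mRNA is stabilised by the iron regulatory proteins when a cell is short of iron. Its level was 10.2, 18.8, 11.5, 19.1 and 39.9 CPM in control and 10.6, 15.1, 13.4, 23.0 and 21.5 CPM in LKO. The groups overlapped over nearly their whole ranges except for control 5. That library set the direction of the difference: with it the log2 fold change was -0.25 (SE 0.35, edgeR adjusted p = 0.693), and without it 0.17. The mean was 19.9 ± 11.9 CPM (SD, n = 5) over all controls and 14.9 ± 4.71 CPM (SD, n = 4) without control 5, beside 16.7 ± 5.31 CPM in LKO (SD, n = 5). Within A54 Tfrc was 0.31 higher in LKO on the log2 scale.

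Slc39a14 (NCBI Gene 213053) encodes ZIP14, the importer of iron that is not bound to transferrin. Its level was 185, 221, 183, 159 and 196 CPM in control and 143, 169, 151, 176 and 163 CPM in LKO. All LKO libraries lay below 4 of the 5 controls, and control 4 lay among them. Means were 189 ± 22.4 and 160 ± 13.4 CPM (SD, n = 5), and the log2 fold change was -0.24 (SE 0.10, unadjusted p = 0.0387 and adjusted p = 0.203 by edgeR) and -0.26 within A54. With total-count scaling it was 0.01, or -0.22 relative to the median of all genes.

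Other genes of iron uptake and reduction, listed together with the ferroxidases Heph and Cp, split evenly, 6 higher and 6 lower of 12 tested. At an unadjusted p under 0.05 there were 6, against 22.3% of all genes, but none passed the adjusted threshold by edgeR over all libraries. The median of the list was -0.13, and 0.09 without control 5. Scara5, a ferritin receptor, was 10.3 to 13.6 CPM in control and 3.01, 3.44, 4.53, 5.36 and, in LKO 3, 11.4 CPM in LKO (log2 fold change -1.10, SE 0.31, edgeR adjusted p = 0.118). LKO 3 was the library that overlapped the controls. Heph, a copper ferroxidase, was 2.09 to 3.26 CPM in control and 3.33 to 9.23 CPM in LKO without overlap (log2 fold change 0.98, SE 0.29, edgeR adjusted p = 0.123; 0.63 without LKO 3). Slc11a1, the phagosomal iron transporter of macrophages, was 9.18 ± 2.29 and 13.4 ± 1.55 CPM (SD, n = 5), beside the higher macrophage marker sums in LKO, whose part was not tested. Lrp2, an endocytic receptor, was 3.14 ± 0.758 and 1.75 ± 0.947 CPM.

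Tfr2 (NCBI Gene 50765) encodes transferrin receptor 2, through which hepatocytes sense iron-loaded transferrin and raise hepcidin. Its level was 289, 245, 260, 144 and 273 CPM in control and 216, 211, 117, 187 and 161 CPM in LKO. Every LKO library lay below 4 of the controls, which held 245 to 289 CPM, and control 4 lay among the LKO libraries. Means were 242 ± 57.3 and 178 ± 40.5 CPM (SD, n = 5), and the log2 fold change was -0.44 (SE 0.21, unadjusted p = 0.0561 and adjusted p = 0.234 by edgeR). Without control 4 it was -0.58 (edgeR adjusted p = 0.0397). Over the alternatives other than the title code, the adjusted p of Tfr2 ran up to 0.400, the value that edgeR gave without control 1. With the title code, where the A54 libraries alone give the genotype effect, the log2 fold change was -0.44. Tfr2 is expressed by hepatocytes, and the library with the lowest Tfr2 in each group, control 4 and LKO 3, also had the lowest hepatocyte marker sum of its group, 57939 and 51146 CPM. The part of the hepatocyte share in the Tfr2 values was not tested.

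Slc40a1 (NCBI Gene 53945) encodes ferroportin, the only known cellular iron exporter and the target of hepcidin. Its level was 107, 83.9, 120, 96.4 and 93.6 CPM in control and 86.3, 90.6, 78.6, 94.7 and 68.3 CPM in LKO. The groups overlapped between 83.9 and 94.7 CPM. Means were 100 ± 13.7 and 83.7 ± 10.5 CPM (SD, n = 5), and the log2 fold change was -0.26 (SE 0.12, unadjusted p = 0.0482 and adjusted p = 0.221 by edgeR) and -0.27 within A54. Hepatocytes and Kupffer cells both express the gene, and Kupffer cell marker sums were 235 to 321 CPM in control and 296 to 480 CPM in LKO. Of these 8 markers 6 were higher and 2 lower in LKO on average, and their part in the Slc40a1 values was not tested.

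**Figure D2:**
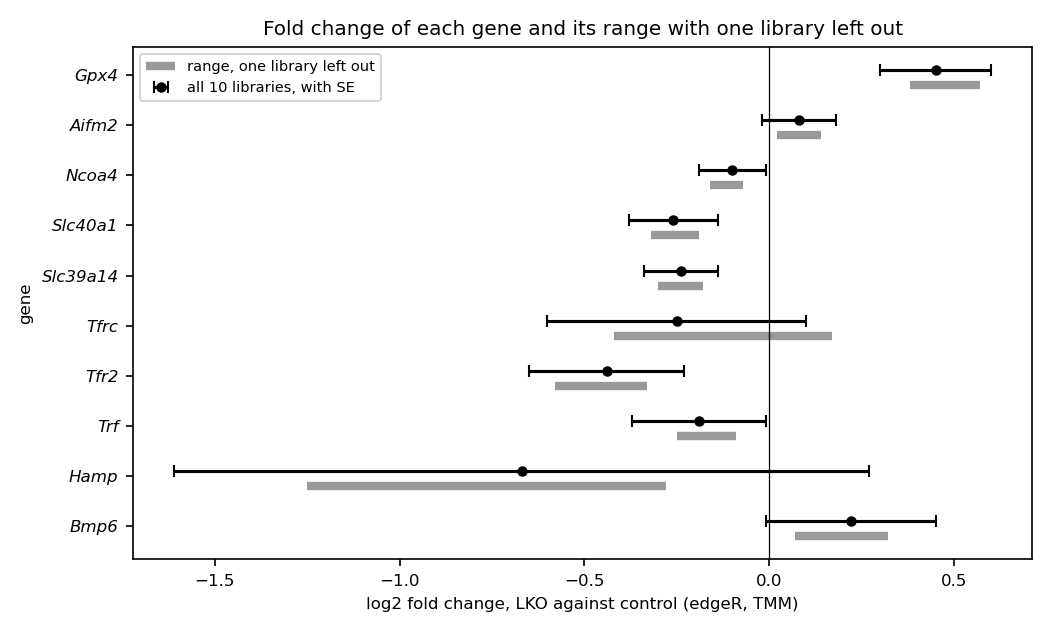
Log2 fold change (horizontal axis, LKO against control, edgeR with TMM scaling) of each of the 10 genes over all 10 libraries with its SE (black) and the range of values with 1 library left out at a time (grey). The Gpx4 range, 0.38 to 0.57, and the Tfr2 range, -0.58 to -0.33, stay on 1 side of 0, the Tfrc range runs from -0.42 to 0.17, and Hamp has the widest range, -1.25 to -0.28.

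Hamp (NCBI Gene 84506) encodes hepcidin, which blocks ferroportin and is raised by iron through BMP6 and SMAD signalling and by inflammation through interleukin-6 and STAT3. The 250 bases before its start are shown because both inputs act on this promoter, and because the genes of both inputs are described beside Hamp here. The sequence is from the RefSeq promoter table for GRCm38.p6, minus strand, chr7:30944030-30944279, written 5′ to 3′. Capitals mark, from left to right, GGCGCC, the core of the BMP response element, a match to the STAT site pattern TTCNNNGAA, and TGAGTCA, which is the AP-1 site TGACTCA read on the other strand.

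Hamp promoter: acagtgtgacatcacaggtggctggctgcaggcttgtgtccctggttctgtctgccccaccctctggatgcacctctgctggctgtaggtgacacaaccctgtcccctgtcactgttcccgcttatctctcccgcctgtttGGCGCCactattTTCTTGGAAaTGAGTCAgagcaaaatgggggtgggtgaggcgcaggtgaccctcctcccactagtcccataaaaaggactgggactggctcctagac

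The 3 matches began 109, 97 and 87 bases before the start and did not overlap each other. Both strands of the 250 bases were searched, as in all 32851 promoters of the table, of which 9.59% held GGCGCC, 7.02% held TTCNNNGAA and 4.46% held TGACTCA. The table held a promoter for 7 of the 10 genes, in 15 windows, since some genes have several starts. GGCGCC was present in 3 of those genes, Hamp, Gpx4 in 1 of 4 windows and Tfrc in 1 of 2 windows, and neither other pattern occurred outside Hamp. Of 5 BMP-SMAD target genes with a promoter in the table, 2 held GGCGCC, Id2 and Smad9. A match describes letters only.

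Hamp was by far the most variable of the 10 genes. It stood at 590, 504, 905, 305 and 5.91 CPM in control 1 to 5 and at 675, 259, 393, 83.6 and 43.3 CPM in LKO 1 to 5. The highest library held 153 times the level of the lowest, and control 5 lay 51.6-fold below the next control. LKO 4 and LKO 5 were the next lowest, so both groups held libraries with little Hamp. Every library was well measured, with 254 to 26833 counts. Means were 462 ± 334 and 291 ± 257 CPM (SD, n = 5), and the log2 fold change was -0.67 with an SE of 0.94 (edgeR adjusted p = 0.693), so the difference was smaller than the spread between mice. Without control 5 the control mean was 576 ± 250 CPM (SD, n = 4) and the log2 fold change -0.99, without the A54 libraries it was -1.32, and within A54 it was -0.50. Hamp2, a duplicated relative of Hamp, was 7.44, 18.6, 10.8, 4.13 and 0.465 CPM in control and 5.09, 10.5, 4.73, 23.8 and 2.90 CPM in LKO, also lowest in control 5. How any reads shared by these genes were counted is not stated in the labels, so the split between them is uncertain.

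Bmp6 (NCBI Gene 12161) encodes the ligand that sinusoidal endothelial cells release when liver iron is high. Its level was 3.81, 3.09, 2.97, 3.45 and 1.75 CPM in control and 4.65, 3.96, 2.94, 2.49 and 3.48 CPM in LKO, from 75 to 148 counts per library. As for Hamp, control 5 was the lowest library. The log2 fold change was 0.22 (SE 0.23, edgeR adjusted p = 0.587), 0.07 without control 5 and 0.08 without the A54 libraries, and the direction was that of the sinusoidal endothelial markers, of which 9 of 9 were higher in LKO on average; their part in the Bmp6 values was not tested.

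Tfrc ran opposite to Hamp across the libraries. Control 5 had the lowest Hamp and the highest Tfrc, LKO 4 and LKO 5 had the next lowest Hamp and the next highest Tfrc, and control 1, LKO 1 and control 3 had the highest Hamp and the lowest Tfrc. Over the 10 libraries Pearson's r of the log2 CPM values was -0.91 (permutation p = 3.80e-04, adjusted p = 0.00342 over 9 relations) and Spearman's rho was -0.88 (permutation p = 0.00176, adjusted p = 0.0158), both two-sided. With each group's mean taken off r was -0.92, and without control 5 and LKO 5, the libraries farthest from the Hamp median, it was -0.79 over 8 libraries. No title code holds the 6 libraries that a coefficient within a code would need. The relations of Hamp to the other 9 genes were computed with the values already known, so their p-values describe a pattern already seen and do not test it. The adjustment covers only these 9 relations and no other pairs of the 10 genes. The permutations also took no account of group or title code. Of the remaining 8, Bmp6 had the strongest Pearson coefficient, r = 0.72 (permutation p = 0.0253, adjusted p = 0.114), with rho = 0.38 and r = 0.47 without the same pair of libraries, and none passed an adjusted p of 0.05.

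**Figure D3:**
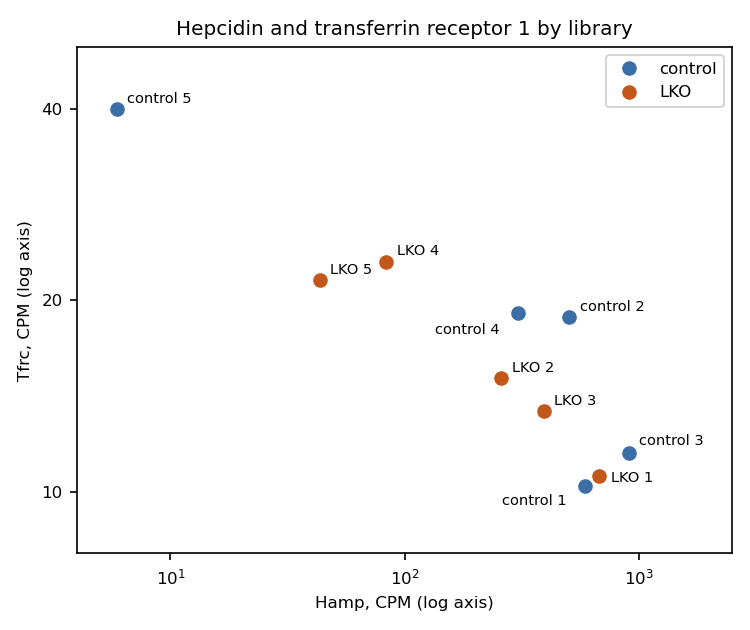
Tfrc against Hamp (both in TMM-scaled CPM, log axes), 1 point per library, control in blue and LKO in orange. Control 5 lies at 5.91 CPM Hamp and 39.9 CPM Tfrc, LKO 4 and LKO 5 come next, and control 1, LKO 1 and control 3 lie at the other end with 10.2 to 11.5 CPM Tfrc.

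Upstream of Hamp, the genes of the BMP-SMAD input gave no call by edgeR over all libraries. Of 15 tested genes 7 were higher and 8 lower, with a median log2 fold change of -0.02. Acvr2a, a type II BMP and activin receptor, was 31.4 to 35.7 CPM in control and 26.0 to 30.0 CPM in LKO without overlap, at a log2 fold change of -0.28 (SE 0.07, edgeR adjusted p = 0.0999). It was called by DESeq2 (adjusted p = 0.00804), by limma voom (adjusted p = 0.0152) and by edgeR without control 4 (adjusted p = 0.0206), and over all alternatives its adjusted p ran up to 0.878, with the title code in the edgeR fit. Hjv, the BMP co-receptor hemojuvelin, was 43.8 ± 11.2 and 46.0 ± 7.09 CPM, and Tmprss6, the protease that cleaves it, was 185 ± 33.0 and 160 ± 31.9 CPM (SD, n = 5). Hjv and Tmprss6 were added by role after their values were seen. Hfe, which signals together with Tfr2, had a log2 fold change of -0.15, Acvr1, a type I receptor, -0.18, and Fst, a secreted ligand trap, 0.87 (SE 0.51). Without LKO 3, which held 9.01 CPM of Fst, the last value was 0.15.

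Other target genes of BMP-SMAD signalling were higher in LKO on average. Of 8 tested, 7 were higher and 1 lower, with a median of 0.38, and 0.22 without control 5. At an unadjusted p under 0.05 there were 2, both higher, where 12.8% of all genes were higher. Sinusoidal endothelial markers (9 of 9 higher) and stellate cell markers (7 of 8 higher) ran the same way, and their part in these values was not tested. Smad9 was 19.9, 8.75, 13.7, 18.9 and 8.40 CPM in control and 26.9, 20.2, 27.0, 17.1 and 14.8 CPM in LKO (log2 fold change 0.61, SE 0.27, edgeR adjusted p = 0.216). Bambi, a decoy receptor, was 2.26 ± 0.558 and 3.88 ± 1.37 CPM (SD, n = 5; log2 fold change 0.78, edgeR adjusted p = 0.137). Smad6, an inhibitory SMAD, and Atoh8, a transcription factor, had log2 fold changes of 0.27 and 0.37, and of 0.13 and 0.24 without control 5. Control 5, with little Hamp and Bmp6, was the lowest control for 7 of these 8 genes, where it was the lowest control for 18.1% of all genes. With each gene's mean over the controls taken off its log2 CPM, the 8 genes averaged 0.37, 0.19, -0.09, 0.19 and -0.66 in control 1 to 5. In LKO 1 to 5 they averaged 0.57, 0.36, 0.72, 0.04 and 0.22. Control 3, with the highest Hamp of all libraries, lay below LKO 4 and LKO 5, which held little Hamp.

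On the inflammatory side, Il6 itself did not pass the low-count filter, and of 8 tested genes of interleukin-6 and STAT3 signalling 6 were higher and 2 lower, with a median of 0.18, and of -0.17 with the title code as a covariate. Il6ra, the interleukin-6 receptor, was 39.4 ± 8.87 and 28.2 ± 5.74 CPM (log2 fold change -0.48, edgeR adjusted p = 0.164), and Il6st, its signalling partner, was 292 ± 14.2 and 339 ± 33.6 CPM (0.21, edgeR adjusted p = 0.214; SD, n = 5). Jak2 and Il22ra1 had log2 fold changes of 0.15 and 0.36. Acute phase genes, many but not all of which the same signal raises in hepatocytes, were lower in 15 of 16 cases, with a median of -0.58. At an unadjusted p under 0.05 there were 10, all of them lower and none past the adjusted threshold by edgeR over all libraries. At that unadjusted threshold 9.50% of all genes were lower. With the title code as a covariate, where the A54 libraries alone give the genotype effect, the median was -0.04. Hepatocyte markers were lower too, 10 of 10 with a median of -0.42, and their part in these values was not tested. Fgb belongs to both the hepatocyte marker and the acute phase lists. Saa1 was 40.5, 50.4, 542, 96.0 and 2069 CPM in control and 55.6, 74.9, 68.0, 93.0 and 72.0 CPM in LKO, so 2 controls made the difference (log2 fold change -2.94, SE 0.98, edgeR adjusted p = 0.142; -1.33 without control 5). Saa4 was 541, 588, 718, 278 and 840 CPM in control and 290, 223, 127, 274 and 226 CPM in LKO, with only control 4 inside the LKO range (-1.38, SE 0.29, edgeR adjusted p = 0.0839). Saa3 and Itih4 had log2 fold changes of -1.69 and -0.99, and of -0.84 and -0.63 without control 5. Control 5 was the highest control for 14 of the 16 acute phase genes, against 17.1% of all genes, while its Hamp was the lowest. It was also the highest control for Tfrc and Trf.

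**Figure D4:**
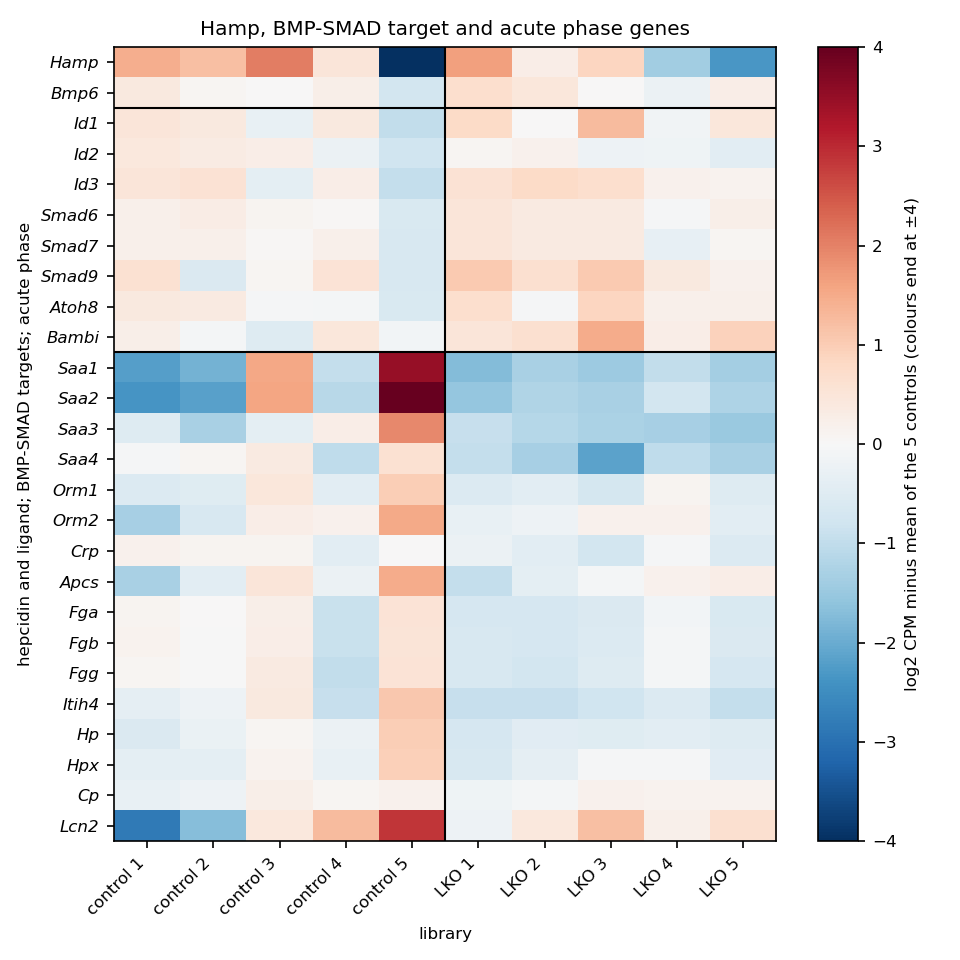
Log2 CPM minus the mean of the 5 controls (colour, ends at ±4) of Hamp and Bmp6, 8 BMP-SMAD target genes and 16 acute phase genes (rows) in each library (columns). In control 5, Hamp, Bmp6 and 7 of 8 BMP-SMAD target genes are at their lowest among controls while 14 of 16 acute phase genes are at their highest.

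Of the genes that sense iron or oxygen inside cells, 4 of 5 tested were below 0, as were 50.5% of all genes. Hif1a, among these 4, was at -0.00. The median was -0.17, and -0.07 without LKO 3. Ireb2, the iron regulatory protein that is degraded when iron is plentiful, was 85.5, 80.2, 88.0, 68.5 and 75.3 CPM in control. LKO 1, at 78.5 CPM, lay among the controls, and the other 4 LKO libraries, at 53.9 to 60.0 CPM, lay below all of them (log2 fold change -0.39, SE 0.12, edgeR adjusted p = 0.126). Fbxl5, the ubiquitin ligase subunit that degrades Ireb2 protein, was 28.2 ± 1.72 and 33.0 ± 3.81 CPM (0.23, edgeR adjusted p = 0.180). Epas1, the hypoxia factor whose mRNA carries an iron responsive element, was 247 ± 19.7 and 190 ± 31.0 CPM (-0.37, edgeR adjusted p = 0.136; SD, n = 5), and Aco1, the other iron regulatory protein, had -0.17.

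Over the 12 pathway lists together, which hold 144 different genes, 136 were tested, and edgeR called Lpcat3 alone over all libraries. DESeq2 called 19 of them, beside 7.43% of all genes. Limma voom with quality weights called 25, beside 16.2% of all genes, and edgeR without control 4 called 24, beside 15.0% of all genes. Of the genes named here, these 3 alternatives all called Lpcat3, Slc7a11, Coq10a, Atf3, Scara5, Slc11a1, Heph, Ireb2, Slc48a1, Acvr2a, Bambi, Saa4 and Itih4. At an unadjusted p under 0.05 there were 38, 16 higher and 22 lower, or 27.9% against 22.3% of all genes.

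**Figure D5:**
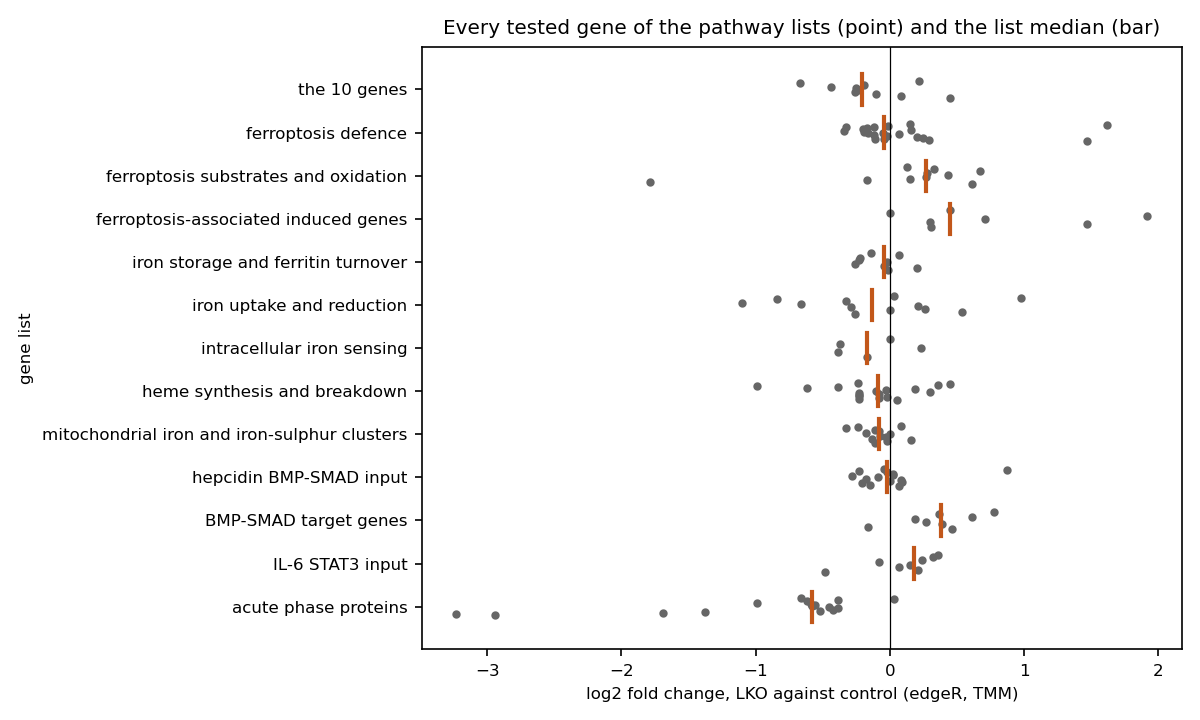
Log2 fold change (horizontal axis, LKO against control, edgeR with TMM scaling) of every tested gene in the 10-gene set and the 12 pathway lists (grey points) with the median of each list (orange bar). Medians run from -0.58 for acute phase genes to 0.45 for genes induced in ferroptosis, and the point at -1.79 is Lpcat3.

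Compared per kilobase of the longest coding transcript, the mean control levels in CPM per kilobase were 2953 for Trf, 1127 for Hamp, 166 for Gpx4, 78.8 for Tfr2, 38.3 for Slc39a14, 32.4 for Ncoa4, 29.7 for Slc40a1, 6.15 for Aifm2, 4.07 for Tfrc and 0.839 for Bmp6. In this order the control ranges of Slc39a14 and Ncoa4, of Ncoa4 and Slc40a1, and of Aifm2 and Tfrc overlapped, and so did those of Hamp (14.4 to 2208) and each gene from Gpx4 to Slc40a1. Tfr2, the receptor that signals, stood far above Tfrc, the receptor that imports, with control ranges of 46.8 to 94.0 and 2.08 to 8.16 CPM per kilobase. The ferritin chains Ftl1 and Fth1, at 774 and 458 CPM per kilobase, lay between Hamp and Gpx4.

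The genes whose levels moved most alike from mouse to mouse differed for each of the 10 genes. Likeness was Pearson's r over the 10 libraries of log2 CPM with the mean of each group taken off, among 12960 genes of at least 1 CPM on average, and is a description, since the libraries share their scaling and cell makeup. The closest genes to Gpx4 were Rad18 (0.98), Pgd (0.97) and Sh3bp5l (0.96), and those to Aifm2 included Raly (0.94) and Trmt1 (0.88). For Ncoa4 they were Arg1 (0.97), Kynu (0.96) and Ccl24 (0.95). Tfrc was closest to Cyp4a14 (0.97), Timm22 (0.94) and Bysl (0.92), Tfr2 to Ypel5 (0.99), F7 (0.99) and Urah (0.98), and Trf to Gtf2e1 (0.97), Rps27a (0.95) and Rps23rg1 (0.94). Slc40a1 was closest to Tspan7 (0.95), Zfp58 (0.93) and Mtap (0.91), and Slc39a14 to Gmpr2 (0.97), Anapc16 (0.95) and Mkks (0.93). Hamp was closest to Zfp11 (0.96), Otud5 (0.93) and Sox13 (0.91), and Bmp6 to Foxk1 (0.97), Tmem94 (0.97) and C77080 (0.96).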

How the data were processed

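Bulk RNA sequencing was done on the livers of 5 control and 5 LKO mice. The labels' protocols describe TRIzol extraction of frozen tissue, depletion of ribosomal RNA with FastSelect and stranded Kapa Hyper libraries, read from 1 end on a NovaSeq. The deposited table holds whole-number counts, not normalized, with NCBI Gene numbers as row names. In the submitters' processing notes, bcl2fastq 2.20, DESeq2 and GRCm39 are named. How reads were aligned and counted, with which annotation and strand setting, was not given in the sources used here, so reads of similar or overlapping genes may have been split or dropped. Each of the 10 columns was matched by name to a sample, which left 0 columns unused.

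Gene symbols were looked up in a RefSeq table of GRCm38.p6, with a match for 25275 of 27179 genes. The rest held 0.693% of counts. After filterByExpr had dropped low-count genes and TMM factors were computed, the effect of genotype was tested in R 4.3.3 with edgeR 4.0.16 (quasi-likelihood F test with the legacy option, two-sided), adjusted by Benjamini-Hochberg over 15226 genes at a threshold of 0.05. Levels are CPM with TMM scaling. Libraries held 26914124 to 46727182 counts, and chi-square per degree of freedom between 2 libraries of a group was at least 47.5 in control and 32.1 in LKO, so no library was a copy of another. Levels per kilobase used the longest coding transcript of a GENCODE mouse annotation. Relations to Hamp used 100000 resamples.

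The 10 genes, the pathway and marker lists and the tests were chosen with earlier results of these data known. All 10 genes were named. Of each pathway list the up to 4 tested genes with the smallest unadjusted p were named, and for each of the 10 genes the 3 most alike, except that some genes these rules take are not reported here. Alternatives were other scalings, filters and edgeR options, DESeq2 1.42.0, voom with limma 3.58.1, a block for the replicate number, a covariate for the title code, and fits without each library in turn or without all A54 libraries. The tests were tried on simulated counts of the LKO against control comparison. With edgeR, 55 of 99 genes changed 2-fold and 84 of 94 genes changed 4-fold were found among 15105 genes, beside 8 false calls. With DESeq2 these were 73 of 100 and 92 of 100 (15225 genes, 45 false calls), and with voom 56 of 100 and 87 of 100 (15226 genes, 7 false calls). Plots were made in matplotlib 3.10.9.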

Additional observations from a re-analysis of the deposited data

Results flagged for a closer look

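In each group of 5 libraries the log2 CPM values of a gene were used. A gene was taken up here when Dixon's ratio was above the critical value for 5 values. The ratio is the gap from the highest or lowest library to the nearest other, as a part of the whole range, on the log2 scale. The levels shown with each ratio are in CPM. Chance gives this in about 1 of 20 groups, and 13 of 114 pairs of gene and group did so. Each is given as a value.

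Hamp in control had a ratio of 0.783, with control 5 at 5.91 CPM and the others at 305 to 905 CPM. In the same library Smad6 had a ratio of 0.726, at 3.98 CPM against 6.32 to 7.52 CPM.

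Control 4 gave 6 of the 13. It was lowest for Tfr2 (ratio 0.764, 144 CPM against 245 to 289), Ncoa4 (0.720, 113 against 133 to 142), Atg5 (0.834, 31.7 against 45.7 to 49.1) and Aco1 (0.714, 171 against 228 to 256), and highest for Atf3 (0.825, 5.09 against 1.02 to 1.36) and Fst (0.730, 3.09 against 1.43 to 1.77). This library also had the lowest hepatocyte marker sum of the controls, 57939 CPM, whose part in these values was not tested.

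Among LKO libraries, Trf was high in LKO 4 (0.721, 7666 CPM against 6223 to 6595) and Ireb2 was high in LKO 1 (0.714, 78.5 against 53.9 to 60.0). LKO 3 was low for Atg7 (0.724, 19.6 against 29.5 to 34.5) and Urod (0.831, 26.5 against 37.5 to 40.2) and high for Flvcr1 (0.726, 5.27 against 3.99 to 4.30).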

How the results depend on the processing

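The count of called genes over the whole table was 10 and depended on the setting: 31 without a filter on low counts, 20 with at least 1 CPM in 5 libraries, 0 with the title code as a covariate, 1143 with DESeq2, 2460 with voom weights, and 2 to 2296 with 1 library left out, the highest without control 4 and the next, 86, without LKO 1. Of the 10 iron and ferroptosis genes, 0 were called in the main test, 1 with voom and 0 to 2 with 1 library left out, and the number without overlap was 0 to 3, both highest without control 4. Of the pathway genes 1 was called, against 0 with the title code, 19 with DESeq2, 25 with voom and 1 to 24 with 1 library left out (24 without control 4, 2 without LKO 1 or without LKO 3). The cause was not tested. Log2 fold changes turned sign with total-count scaling for Ncoa4 (0.14), Trf (0.04), Slc39a14 (0.01), Secisbp2 (0.02), Atg5 (0.01), Tax1bp1 (0.10), Aco1 (0.07), Urod (0.01), Fdx1 (0.01), Iscu (0.10), Hfe (0.08) and Acvr1 (0.06), where the median of all genes was 0.235. The fit with the title code takes the genotype effect from the A54 libraries alone. In that fit log2 fold changes turned sign for Aifm2 (-0.22), Tfrc (0.34), Trf (0.01), Hmox1 (-0.20), Hp (0.02), Atoh8 (-0.02) and Saa1 (0.69). Without control 5 the log2 fold change of Tfrc turned sign (0.17, the highest of its values with 1 library left out, which began at -0.42). Hamp kept its direction under every alternative run, from -1.32 to -0.28.

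With the replicate number as a block, edgeR called 2 genes, Lpcat3 among them, and none of the 10 iron and ferroptosis genes. The numbers are only names: same-numbered deviations from the group means correlated at 0.419, 0.208, -0.234, -0.399 and -0.0183 for replicates 1 to 5, and only control 1 correlated best with its own number.

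At 75 to 148 counts per library, Bmp6 was the least deeply measured of the 10 genes.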

Other observations

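Genes of heme metabolism and of mitochondrial iron use gave no call by edgeR over all libraries. Of 18 genes of heme synthesis, transport and breakdown 5 were higher and 13 lower in LKO, and their median was -0.09 on the log2 scale. Slc48a1, a heme transporter of the lysosome, was 31.7 ± 4.63 CPM in control and 40.7 ± 2.36 CPM in LKO (SD, n = 5; log2 fold change 0.36, edgeR adjusted p = 0.111). Its adjusted p was 0.0323 with DESeq2, 0.0122 with limma voom and 0.0153 with edgeR without control 4, and ran up to 0.878 over all alternatives. Flvcr1, a heme exporter, had 2.49 to 3.78 CPM in control and 3.99 to 5.27 CPM in LKO without overlap (0.45, edgeR adjusted p = 0.136). Hp, haptoglobin, was 3545 CPM in control 5 and 1198 to 1896 CPM in the other controls, against 1112 to 1333 CPM in LKO (-0.62, edgeR adjusted p = 0.202; -0.28 without control 5 and 0.02 with the title code as a covariate). Urod, an enzyme of heme synthesis, had a log2 fold change of -0.23. Alas1, the rate-limiting enzyme of heme synthesis, chosen after its values were seen, was 1067 CPM in control 5 and 285 to 685 CPM in the other controls.

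Of 13 tested genes of mitochondrial iron and iron-sulphur clusters 3 were higher and 10 lower, with a median of -0.08. Cisd2, an iron-sulphur protein of the endoplasmic reticulum and outer mitochondrial membranes, was 29.0 ± 3.34 and 23.1 ± 2.45 CPM (SD, n = 5; log2 fold change -0.33, edgeR adjusted p = 0.126). Its adjusted p was 0.0435 with DESeq2 and 0.0401 with limma voom, and ran up to 0.944 over all alternatives. The scaffold Iscu and the ferredoxin Fdx1 had log2 fold changes of -0.13 and -0.24.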
